A study of Mus musculus with 18 samples.

Results

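The 10 genes described here (Csf1r, Cx3cr1, P2ry12, Aif1, Itgam, Tyrobp, Trem2, Laptm5, Mpeg1 and Ly86) are commonly used to recognise microglia, the resident macrophages of the brain and spinal cord. They were chosen by gene symbol: every probe set annotated to a member was taken, which gave 18 probe sets of the 45101 on the array, for 10 of 18193 genes. Gene expression was measured on mouse Affymetrix arrays in 18 samples, 3 in each of 6 groups. The groups are ventral spinal cord tissue from wildtype mice and from SOD1 mutant mice, motor neurons taken from the spinal cord of either genotype, and motor neurons taken from the facial nucleus, a brainstem motor nucleus, of either genotype. All RNA was amplified by a linear T7-based method before hybridisation. The labels give no SOD1 allele, promoter, copy number, strain, sex or agent, no protocol for taking the motor neurons and no tie between samples and animals, and the D60 in every sample title is not explained there. All p-values thus rest on the spread among the 3 samples of a group, and part of that spread may be technical. Levels below are quantile normalised log2(intensity + 16), differences are between levels on that scale, and 8.79, the 40th percentile of all genes, is used as the level under which a probe set is close to background.

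Microglia depend on signalling through Csf1r, a receptor tyrosine kinase bound by the cytokines Csf1 and Il34, for their survival. Cx3cr1 binds the neuronal chemokine Cx3cl1, and P2ry12 is a receptor for extracellular nucleotides that directs process movement in resting microglia. Trem2 is a surface receptor for lipids and lipoproteins that signals through the adaptor Tyrobp. In injured or degenerating nervous tissue, microglia are known to multiply and to alter their expression, P2ry12 being known to fall and phagocytic and lysosomal genes to rise. In bulk samples such as these, fewer microglia and less RNA per microglial cell cannot be told apart.

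Members of a cell type's gene set often share binding sites for its transcription factors, in microglia foremost those of Spi1, a member of the Ets family whose binding core is GGAA. The windows upstream of 4 members are printed so that the sequence behind a gene that differed between genotypes in tissue can be set beside that of one that did not pass the test. Each is the 250 bases before the annotated start, from the RefSeq promoter table of build GRCm38.p6, written 5′ to 3′ on the gene's strand. Capitals mark the hexamers GAGGAA or AGGAAG, or their reverse complements TTCCTC or CTTCCT, which can overlap in 1 longer run. Ly86 lies on the plus strand (chr13:37345095-37345344), as do Trem2 (chr17:48346151-48346400) and Mpeg1 (chr19:12460520-12460769), and P2ry12 lies on the minus strand (chr3:59262986-59263235). All 4 windows lie wholly before the annotated gene.
Ly86: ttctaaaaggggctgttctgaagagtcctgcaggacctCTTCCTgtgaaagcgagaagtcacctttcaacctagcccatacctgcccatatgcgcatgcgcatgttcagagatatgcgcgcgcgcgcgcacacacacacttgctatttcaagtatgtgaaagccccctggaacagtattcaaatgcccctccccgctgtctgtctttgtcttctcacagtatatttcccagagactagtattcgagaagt
Trem2: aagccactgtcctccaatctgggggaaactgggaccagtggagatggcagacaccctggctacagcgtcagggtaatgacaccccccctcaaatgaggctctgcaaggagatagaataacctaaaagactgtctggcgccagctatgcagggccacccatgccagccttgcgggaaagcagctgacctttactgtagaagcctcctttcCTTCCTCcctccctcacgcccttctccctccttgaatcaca
Mpeg1: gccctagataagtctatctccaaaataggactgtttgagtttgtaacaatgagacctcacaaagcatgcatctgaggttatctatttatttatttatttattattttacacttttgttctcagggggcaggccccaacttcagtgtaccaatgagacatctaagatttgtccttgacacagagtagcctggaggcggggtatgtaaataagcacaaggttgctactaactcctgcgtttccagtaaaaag
P2ry12: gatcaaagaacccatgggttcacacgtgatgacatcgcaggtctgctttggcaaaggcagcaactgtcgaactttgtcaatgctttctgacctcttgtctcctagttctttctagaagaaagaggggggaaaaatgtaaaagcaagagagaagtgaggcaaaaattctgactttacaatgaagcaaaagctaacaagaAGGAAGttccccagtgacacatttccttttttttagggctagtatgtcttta

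The table held 8 of the 10 members, and 6 of those 8 had at least 1 of the hexamers on either strand: P2ry12, Aif1, Itgam, Trem2, Laptm5 and Ly86. In P2ry12 the match began 52 bases before the start, in Trem2 41 and in Ly86 212. Mpeg1, which had the largest genotype difference of the members in tissue, had neither hexamer in its window, and neither had Cx3cr1. Both windows do hold the shorter core GGAA or its reverse complement TTCC, which was not counted over all promoters. Of 32851 promoters of the same length, 39.2% held 1 or both, GAGGAA being in 23.3% and AGGAAG in 29.5%. A match is a run of letters and no measured binding.

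The samples differed in RNA quality and in the levels of cell type markers. The ratio of 3′ to 5′ actin control intensity, which rises as amplified RNA loses its 5′ ends, was 1.56 to 1.78 in tissue samples and 25.3 to 74.4 in samples of motor neurons. In both motor neuron sites the wildtype mean was the higher one, 46.5 ± 9.06 (SD, n = 3) against 30.7 ± 7.37 in the mutant at the spinal site and 67.6 ± 7.44 against 39.8 ± 17.0 at the facial site. The part of this ratio in the genotype differences of the motor neurons was not tested beyond its use as a covariate. Of the tested motor neuron markers, 7 of 10 were higher in wildtype spinal motor neurons than in tissue and 0 lower. In facial ones 5 of 8 were higher and 1 was lower. At either site 11 of 12 astrocyte markers were lower. Of all genes tested, 35.5% were called higher than in tissue at the spinal site and 41.3% at the facial site, and 23.1% and 26.9% were called lower. Sod1 levels did not overlap between genotypes in any sample kind, the mutant arrays being the higher. The wildtype spinal motor neuron arrays lay far from each other in the member genes: the mean deviation of the 10 genes from the average of the 6 spinal motor neuron arrays was 0.11 in replicate 1, -1.65 in replicate 2 and -0.83 in replicate 3. The actin ratio of replicate 1, 56.9, was the highest of its group. Spinal results are given with and without replicates 1 and 2.

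**Figure D1:**
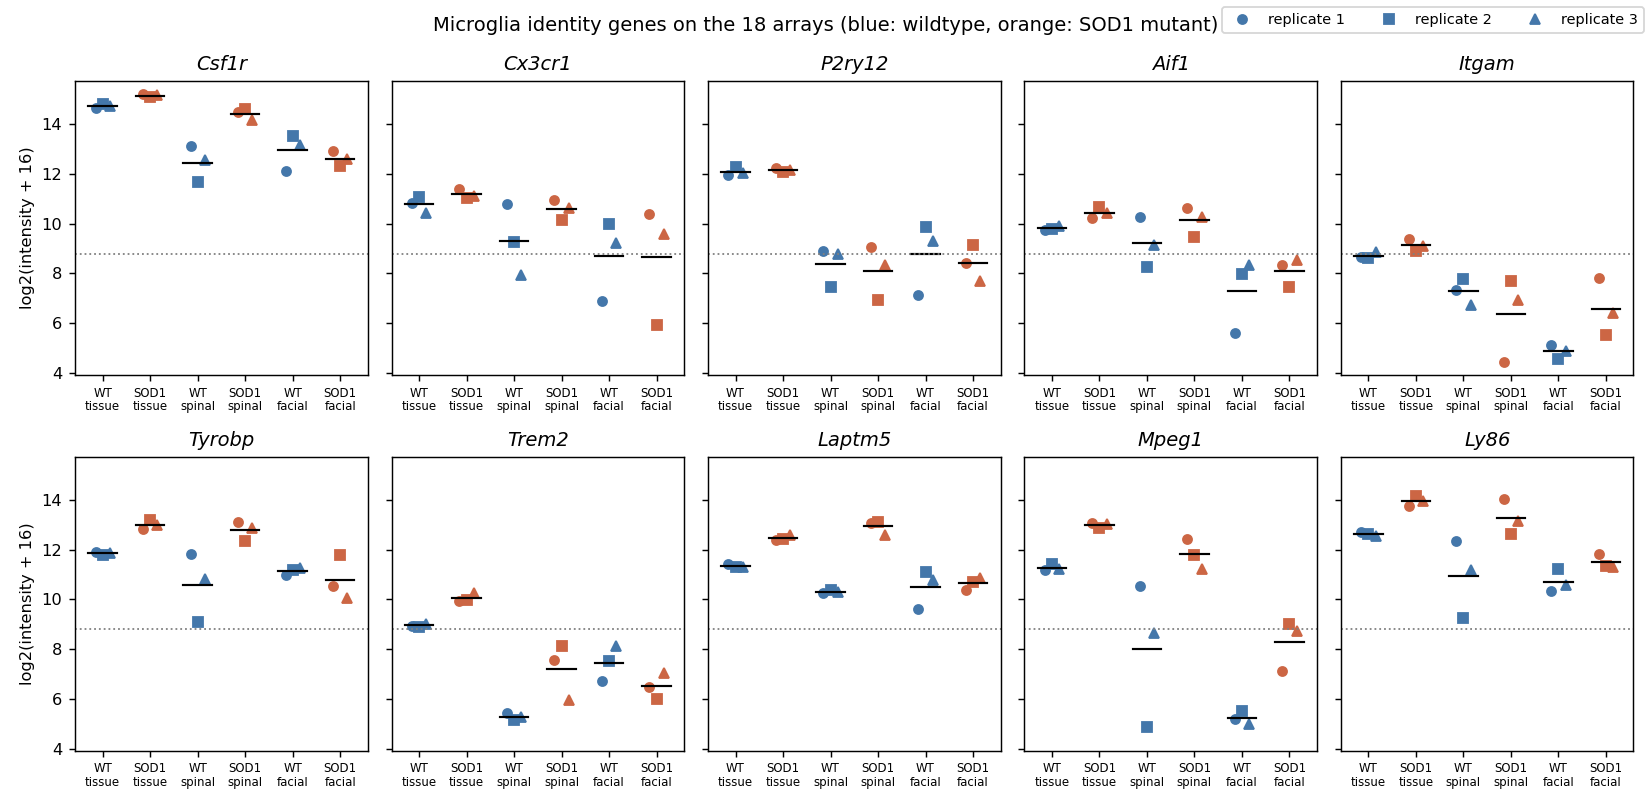
Levels of the 10 microglia identity genes, log2(intensity + 16), on the 18 arrays, with a bar at each group mean and a dotted line at 8.79, the level taken as close to background. Wildtype arrays are blue and SOD1 mutant arrays orange. In tissue the mutant arrays lie above all wildtype arrays in 8 of the 10 genes, while P2ry12 overlaps, and in motor neurons the scatter within a group is wider.

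Ventral cord tissue of SOD1 mutant mice expressed 6 of the 10 microglia identity genes at a higher level than wildtype tissue, led by Mpeg1, Ly86, Tyrobp, Laptm5 and Trem2 with rises of 2.15 to 3.30-fold. P2ry12, the receptor most tied to resting microglia, differed by 0.08 (log2), and Cx3cr1, Aif1 and Itgam did not pass the test. All 10 members were tested, and none was lower in the mutant. Over all 10916 genes tested with limma, 0.504% were called higher, at a Benjamini-Hochberg adjusted p under 0.05. The median difference of the 10 members was 0.87, against -0.01 over all tested genes.

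Mpeg1 encodes perforin-2, a pore-forming protein of macrophage phagosomes. Its levels were 11.19, 11.40 and 11.22 on the wildtype tissue arrays and 13.07, 12.86 and 13.04 on the mutant ones. The mutant arrays were all far above the wildtype arrays, by 1.72 on average (SE 0.11, 3.30-fold, adjusted p = 0.000383, limma). Ly86, also called MD-1, pairs with the Toll-like receptor relative Cd180. It stood at 12.72, 12.62 and 12.54 in wildtype tissue and at 13.77, 14.15 and 13.97 in mutant tissue. The groups did not overlap, and the difference was 1.33 (SE 0.11, 2.52-fold, adjusted p = 0.0014, limma). Laptm5 is a membrane protein of lysosomes found in cells of the blood lineage. On its brightest probe set it went from 11.43, 11.32 and 11.31 in wildtype to 12.38, 12.44 and 12.60 in mutant tissue, a difference of 1.12 (SE 0.11, adjusted p = 0.00346, limma) with no overlap.

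The receptor Trem2 and its adaptor Tyrobp rose by similar amounts in tissue. Tyrobp levels were 11.90, 11.77 and 11.86 in wildtype and 12.82, 13.20 and 13.004 in mutant tissue. Trem2 was dimmer, at 8.94, 8.90 and 9.01 in wildtype, just over the background level, and 9.95, 9.98 and 10.25 in mutant tissue. Neither gene's groups overlapped, with differences of 1.16 for Tyrobp (SE 0.11, 2.24-fold, adjusted p = 0.00348, limma) and 1.11 for Trem2 (SE 0.16, 2.15-fold, adjusted p = 0.0167, limma). The call for Trem2 was lost when wildtype replicate 2, mutant replicate 2 or mutant replicate 3 was left out, and the highest adjusted p over its alternatives was 0.134.

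Among the receptors that maintain and position microglia, only Csf1r passed the test in tissue, and its rise was the smallest of those that did. Its levels were 14.65, 14.80 and 14.73 in wildtype and 15.19, 15.10 and 15.15 in mutant tissue. The arrays of the genotypes were apart, by 0.42 (SE 0.07, 1.34-fold, adjusted p = 0.0241, limma). This call was lost under 8 of 17 alternatives, 5 of them with 1 array left out, and the differences stayed between 0.31 and 0.46. Cx3cr1 stood at 10.84, 11.09 and 10.44 in wildtype and at 11.41, 11.04 and 11.10 in mutant tissue. Those ranges overlapped, and the 95% interval of the difference ran from -0.01 to 0.79 (adjusted p = 0.513, limma).

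P2ry12 had the smallest difference of the members in tissue. Its wildtype levels were 11.96, 12.26 and 12.02 and its mutant levels 12.25, 12.06 and 12.17. The ranges overlapped almost wholly, with a 95% interval of -0.17 to 0.34 for the difference (adjusted p = 0.873, limma). The interval excludes a rise as large as those of the 5 genes named first, and does not show that the level was the same.

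The remaining members are an actin-binding and an adhesion protein. Aif1, known as Iba1 and much used to stain microglia, had levels of 9.73, 9.78 and 9.92 in wildtype and 10.21, 10.65 and 10.44 in mutant tissue. The arrays were apart, but the difference of 0.63 (SE 0.15) did not pass the test (adjusted p = 0.17, limma). Itgam, the alpha chain of complement receptor CR3, also known as CD11b, was close to background at 8.65, 8.63 and 8.86 in wildtype and 9.37, 8.91 and 9.09 in mutant tissue. Its groups were apart by 0.41 (adjusted p = 0.526, limma). In all, 8 of 10 members had every mutant tissue array above every wildtype one, which held for 6.69% of all 18193 genes. With all 18 arrays in one fit, where tissue shares the wider spread of the motor neuron arrays, 0 of 8 tested members passed in tissue.

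With each member's level taken relative to P2ry12 on the same array, the other 9 genes were all higher in mutant tissue, by 0.31 (Cx3cr1) to 1.64 (Mpeg1), with no overlap between the genotypes. P2ry12 was taken as the reference with its small difference already known, which fixes the direction of these values, so they are a description and support nothing further.

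**Figure D2:**
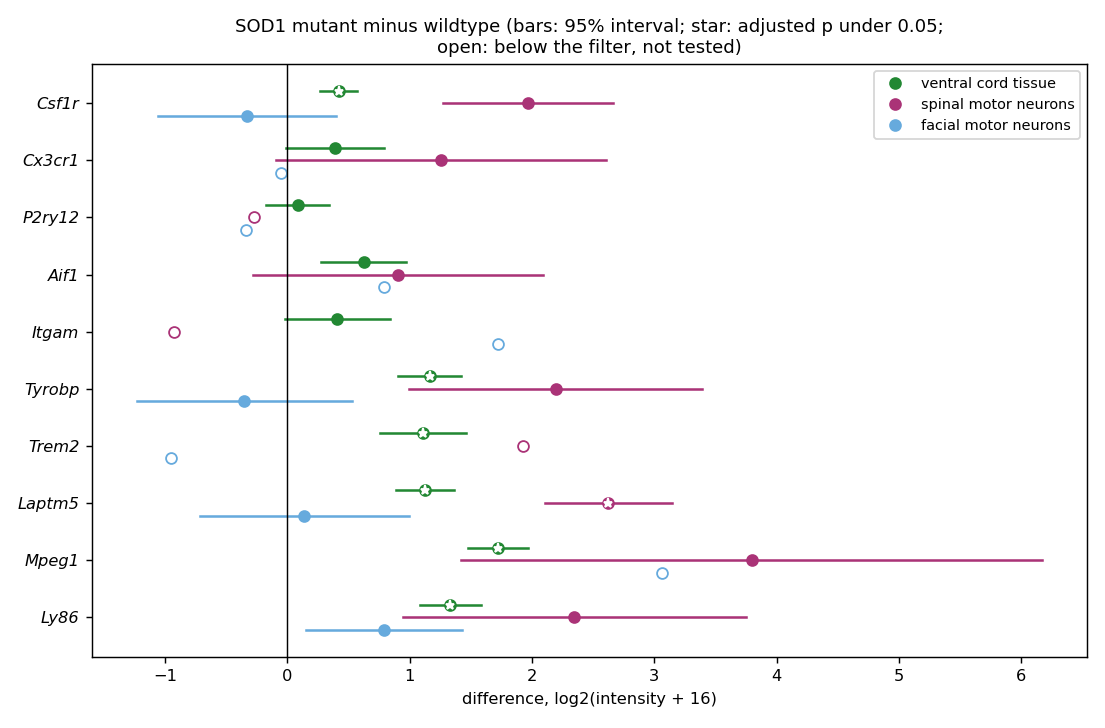
Mutant minus wildtype difference of each member, log2(intensity + 16), in the 3 sample kinds, with 95% intervals from limma where the gene was tested. White stars mark an adjusted p under 0.05 and open circles genes under the brightness filter. In tissue all 10 points are above 0 with 6 stars, in spinal motor neurons the points are farther from 0 with wide intervals and 1 star, and in facial motor neurons they scatter around 0.

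In spinal motor neurons, 1 of 7 tested members, Laptm5, rose in the mutant, with a 6.17-fold difference. Of all genes tested there, 0.055% were called higher. The other 6 tested members were all higher in the mutant by 0.91 to 3.80 (log2) without passing the test, and Csf1r, Tyrobp, Mpeg1 and Ly86 had no overlap between genotypes. P2ry12, Itgam and Trem2 were under the brightness filter. The median difference of all 10 members was 1.95, against -0.01 over all genes.

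Laptm5 levels were 10.23, 10.39 and 10.29 on the wildtype arrays and 13.08, 13.12 and 12.59 on the mutant ones. Its wildtype spread was narrow, with an SD of 0.08, which the other members did not share apart from Trem2 near background. The difference was 2.63 (SE 0.24, adjusted p = 0.00154, limma). Over 17 alternatives the difference stayed between 2.53 and 2.88. The call was lost under 1 of them, the actin ratio as a covariate (2.77, adjusted p = 0.0924), where 0 genes of all those tested were called.

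Csf1r stood at 13.14, 11.66 and 12.55 in wildtype and at 14.49, 14.59 and 14.18 in mutant spinal motor neurons. The mutant arrays were all above the wildtype ones, by 1.97 (SE 0.32, 3.91-fold, adjusted p = 0.0685, limma), and Csf1r passed the test under 7 of 17 alternatives. Tyrobp levels were 11.82, 9.09 and 10.81 in wildtype and 13.10, 12.35 and 12.87 in the mutant, a difference of 2.20 (SE 0.54, adjusted p = 0.274, limma). Ly86 ran from 12.33, 9.24 and 11.19 to 14.05, 12.61 and 13.14, a difference of 2.35 (SE 0.63, adjusted p = 0.354, limma). In each of these 3 genes wildtype replicate 1 was the highest of its group and replicate 2 the lowest.

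Mpeg1 had the widest wildtype spread of all members, with levels of 10.52, 4.89 and 8.64 and an SD of 2.87. The mutant levels of 12.44, 11.77 and 11.23 were all above them, by 3.80 (SE 1.08, adjusted p = 0.382, limma), and no fold is given because 2 of 3 wildtype arrays were under the background level. Mpeg1 passed the brightness filter through the mutant group, its wildtype mean of 8.02 being under the background level. Trem2 was under that level on every motor neuron array, and its mutant spinal levels of 7.56, 8.13 and 5.94 were above the wildtype ones of 5.42, 5.17 and 5.27. Cx3cr1 levels were 10.77, 9.26 and 7.92 in wildtype and 10.97, 10.14 and 10.61 in mutant, and Aif1 levels were 10.27, 8.27 and 9.14 against 10.63, 9.48 and 10.28. Both overlapped, with adjusted p of 0.541 and 0.583 (limma).

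P2ry12 and Itgam were the only members lower in mutant spinal motor neurons on average. P2ry12 stood at 8.91, 7.44 and 8.78 in wildtype and at 9.06, 6.93 and 8.34 in the mutant, at or below the background level on 4 of 6 arrays. Itgam was under it on all 6, at 7.32, 7.78 and 6.74 against 4.46, 7.68 and 6.92. Their differences of -0.27 and -0.93 were not tested, and values this low have little order. Counted over all 10 members, 6 had no overlap with the mutant higher, which 6.24% of all genes had.

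These results moved with single wildtype arrays. Replicates 1 and 2 are shown because they were the highest and the lowest wildtype array in the mean deviation of the members. Leaving out an array picked on the members' own levels changes their differences and spread by construction. The calls below are thus a description and support nothing further. With wildtype replicate 3 or any mutant array left out, 1 member passed. Without wildtype spinal replicate 1, 5 of 7 tested members rose: Csf1r by 2.31 (adjusted p = 0.00417), Tyrobp by 2.82 (0.0224), Laptm5 by 2.59 (0.00169), Mpeg1 by 5.05 (0.0343) and Ly86 by 3.05 (0.0352, all limma). Genes called higher then made up 0.247% of all genes tested. Mpeg1 then passed the brightness filter through the mutant group. Its remaining wildtype levels, 4.89 and 8.64, were under the background level, so 5.05 is no exact size. Without replicate 2, the lowest in most members, 4 of 7 rose by smaller differences: Csf1r by 1.57 (adjusted p = 0.00564), Tyrobp by 1.45 (0.0286), Laptm5 by 2.67 (0.00147) and Mpeg1 by 2.23 (0.0345, all limma). Ly86 then differed by 1.51 (adjusted p = 0.0554), and 3.18% of all genes were called higher. Leaving out replicate 2 thus took the differences of Tyrobp, Aif1, Mpeg1 and Ly86 down by over 1.5 times. Laptm5 was thus called with either array left out, at 2.59 and 2.67.

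Facial motor neurons showed no member past the test. Of 10916 genes none was called there (0% higher), although 1949 had an unadjusted p under 0.05. Only Csf1r, Tyrobp, Laptm5 and Ly86 were bright enough to be tested, and the median difference of all 10 members was 0.05, against 0.02 over all genes. Csf1r levels were 12.13, 13.53 and 13.16 in wildtype and 12.93, 12.33 and 12.59 in the mutant. They overlapped, with a 95% interval of -1.05 to 0.40 for the difference (adjusted p = 0.634, limma). Tyrobp stood at 10.996, 11.18 and 11.25 against 10.54, 11.78 and 10.05, a difference of -0.35 (adjusted p = 0.674, limma), and Laptm5 at 9.60, 11.11 and 10.79 against 10.38, 10.69 and 10.86, a difference of 0.14 (adjusted p = 0.876, limma).

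Ly86 was the 1 tested member whose facial groups did not overlap. It went from 10.32, 11.21 and 10.57 in wildtype to 11.84, 11.34 and 11.29 in the mutant, by 0.79 (SE 0.28, adjusted p = 0.21, limma). Among untested members, Mpeg1 was under background on all wildtype facial arrays (5.20, 5.51 and 5.004) and stood at 7.13, 9.02 and 8.74 in the mutant, and Itgam went from 5.13, 4.56 and 4.90 to 7.83, 5.51 and 6.41. These 3 genes were the members with all mutant arrays above the wildtype ones, a pattern that 10.5% of all genes showed. Cx3cr1 scattered most, from 6.89 to 9.97 in wildtype and from 5.93 to 10.38 in the mutant, and P2ry12 ran from 7.14 to 9.86 and from 7.70 to 9.16. Aif1 at most 8.53 and Trem2 at most 8.12 were under the background level on all 6 facial arrays.

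The differences between these genotype effects were tested as interaction contrasts over 12 arrays. Laptm5 rose by more in spinal motor neurons than in tissue, by 1.502 (SE 0.24, adjusted p = 0.0393, limma), the only 1 of 8 tested members to pass, where 0.0458% of all genes passed in that direction. This call was lost under 14 of 23 alternatives, among them each of the 6 tissue arrays left out, although the difference stayed between 1.41 and 2.05. Csf1r followed with 1.55 (SE 0.37, adjusted p = 0.365, limma) and passed without wildtype spinal replicate 1 or 2. Between spinal and facial motor neurons no member and no other gene passed (0% of all genes, 987 genes with an unadjusted p under 0.05). The 5 tested members all had larger effects at the spinal site, with 2.54 for Tyrobp (95% interval 0.92 to 4.17, adjusted p = 0.408), 2.48 for Laptm5 (1.499 to 3.47, 0.219), 2.29 for Csf1r (1.22 to 3.37, 0.219), 1.56 for Ly86 (0.589) and 1.31 for Cx3cr1 (0.832, all limma). Cx3cr1 had facial means under the background level, 8.69 in wildtype and 8.64 in the mutant, and passed the filter through the spinal arrays. Counted over all 10 members, 9 had the higher difference at the spinal site. Of all tested genes, 48.2% had the higher difference there. Among untested members Mpeg1 differed by 0.74 and Trem2 by 2.88, and P2ry12 and Aif1 by only 0.07 and 0.11. Itgam, also untested, went the other way, by -2.65. Without wildtype facial replicate 1, Laptm5 passed.

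Within the mutant, spinal motor neuron samples had higher levels of most tested members than facial ones. Of 7 tested members, 6 were higher at the spinal site, with differences of 3.52 for Mpeg1 (SE 0.48, adjusted p = 0.00166), 2.29 for Laptm5 (SE 0.23, 0.000185), 2.03 for Aif1 (SE 0.48, 0.0262), 1.98 for Tyrobp (SE 0.37, 0.00884), 1.80 for Csf1r (SE 0.19, 0.000251) and 1.78 for Ly86 (SE 0.31, 0.00632, all limma). Called genes in that direction made up 4.09% of those tested. For these 6 members all spinal arrays were above all facial ones, which held for 11.4% of all genes. Only Csf1r, Tyrobp, Laptm5 and Ly86 had both group means above the background level. The facial mean of Mpeg1 was 8.30, with 1 of 3 arrays above that level, so its difference has no exact size. Aif1 was under it on all facial arrays, and with those arrays set at 8.79 its difference was at least 1.34, or at least 2.53-fold higher. Both passed the filter through the spinal group where they are high. The Aif1 call was lost under 4 of 16 alternatives, among them mutant spinal replicate 1 or 3 left out. Cx3cr1 differed by 1.94 with an interval of 0.08 to 3.79 and overlapping arrays (adjusted p = 0.199), and the untested P2ry12, Itgam and Trem2 by -0.32, -0.23 and 0.71. Without a mean-variance trend in the fit, 3 of the 6 calls remained, those of Csf1r, Laptm5 and Mpeg1. The mutant spinal arrays are those of the genotype comparison above, so the comparisons share samples.

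In wildtype, no difference between the sites passed for the 5 tested members, where 3.96% of all genes passed in either direction. Csf1r differed by -0.49 with a 95% interval of -1.45 to 0.46, Tyrobp by -0.57 with -1.85 to 0.72, Laptm5 by -0.19 with -1.10 to 0.71, Ly86 by 0.22 with -1.26 to 1.70 and Cx3cr1 by 0.63 with -1.44 to 2.70 (limma). Each of these intervals includes a difference of over 2-fold in at least 1 direction. Of the untested members, Itgam was higher at the spinal site and Trem2 lower, with no overlap, all of those levels being under the background level. Among all genes, 12.4% lay wholly higher at the spinal site and 10.8% wholly lower.

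**Figure D3:**
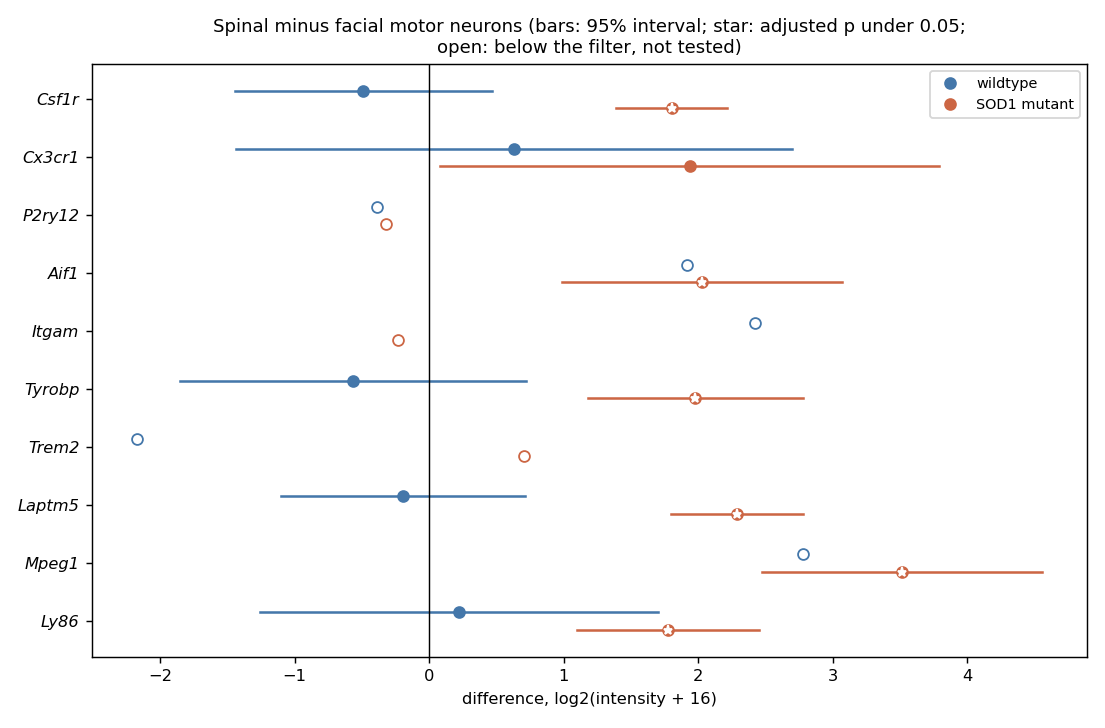
Spinal minus facial motor neuron difference of each member, log2(intensity + 16), in wildtype and in SOD1 mutant samples, with 95% intervals from limma where tested. Stars mark an adjusted p under 0.05 and open circles untested genes. The 6 starred mutant values lie between 1.78 and 3.52, and the tested wildtype values lie between -0.57 and 0.63.

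Motor neuron samples of wildtype mice still held the signal of microglia identity genes, at a lower level than the tissue. At the spinal site 5 of 8 tested members were lower than in tissue, with differences of -3.70 for P2ry12, -3.25 for Mpeg1, -2.28 for Csf1r, -1.71 for Ly86 and -1.05 for Laptm5 (adjusted p of 8.35e-05, 0.0369, 0.000376, 0.0437 and 0.00168, limma). At the facial site 5 of 6 were lower, with -3.31 for P2ry12, -2.10 for Cx3cr1, -1.93 for Ly86, -1.79 for Csf1r and -0.70 for Tyrobp (0.00165, 0.0276, 0.000129, 0.00109 and 0.00218, limma). P2ry12 and Mpeg1 had spinal means under the background level (8.38 and 8.02, with 1 of 3 arrays above it for either), and P2ry12 and Cx3cr1 had such facial means (8.77 and 8.69, with 2 of 3 above it), so these 4 differences have no exact size and these members passed the filter through the tissue group. Among members with both means above that level, 3 of 6 were called at the spinal site and 3 of 4 at the facial site. The spinal call of Ly86 was lost under 9 of 17 alternatives and that of Mpeg1 under 7 of 16, for both with each wildtype tissue array or spinal replicate 3 left out. At the facial site the Cx3cr1 call was lost with each wildtype tissue array left out, and those of Csf1r and Tyrobp with a common median in place of quantile normalisation. Called lower genes made up 23.1% and 26.9% of those tested, so such a call was common, and the median of all tested genes was 0.22 higher in motor neurons at both sites. At the facial site all 10 members had no overlap with the tissue, at the spinal site 7 of 10, where 22.7% and 20.6% of all genes lay wholly below the tissue. With the actin ratio as a covariate no member was called at either site. This ratio is split between tissue and motor neurons. Csf1r, Tyrobp, Laptm5 and Ly86 were at or above the background level on all 18 arrays.

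The order of the 6 groups therefore differed between members. Mutant tissue was the highest group for 9 of 10 genes, and for Laptm5 mutant spinal motor neurons came first, at 12.93 ± 0.29 (SD, n = 3) beside mutant tissue at 12.47 ± 0.12, with overlapping ranges. For Aif1, Tyrobp, Laptm5, Mpeg1 and Ly86 mutant spinal motor neurons ranked above wildtype tissue, with no overlap for Tyrobp (12.77 ± 0.38 against 11.84 ± 0.07) and Laptm5 (against 11.35 ± 0.07). P2ry12 followed another order: both tissue groups, at 12.16 ± 0.10 and 12.08 ± 0.16, overlapped each other, and all 4 motor neuron groups, between 8.11 and 8.77 on average, overlapped their neighbours. The last 3 places were held by wildtype facial, mutant facial and wildtype spinal motor neurons for Csf1r, Tyrobp, Laptm5, Mpeg1 and Ly86, and each of these groups overlapped the next.

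Members with several probe sets did not always give the same size of difference. Csf1r had 3, and in tissue they differed by a like amount, 0.42, 0.44 and 0.40. At the spinal site the first 2 differed by 1.97 and 2.09 and the third by 0.62. For Laptm5, with 5 probe sets, the brightest is of the x type, whose probes can match other transcripts too. Its next brightest differed by 0.60 in tissue and 1.38 in spinal motor neurons, and when every probe set was tested (27022 in all) these had adjusted p of 0.202 and 0.592, beside 0.00454 and 0.00464 for the brightest (limma). The other 3 Laptm5 probe sets lay mostly below background, with differences of -0.68, -0.01 and 0.05 in tissue and 2.45, 0.35 and -1.95 in spinal motor neurons, so the Laptm5 calls rest on 1 probe set. The second probe set of Cx3cr1 differed by 0.44 in tissue and that of Trem2, under background on all arrays, by -0.55.

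**Figure D4:**
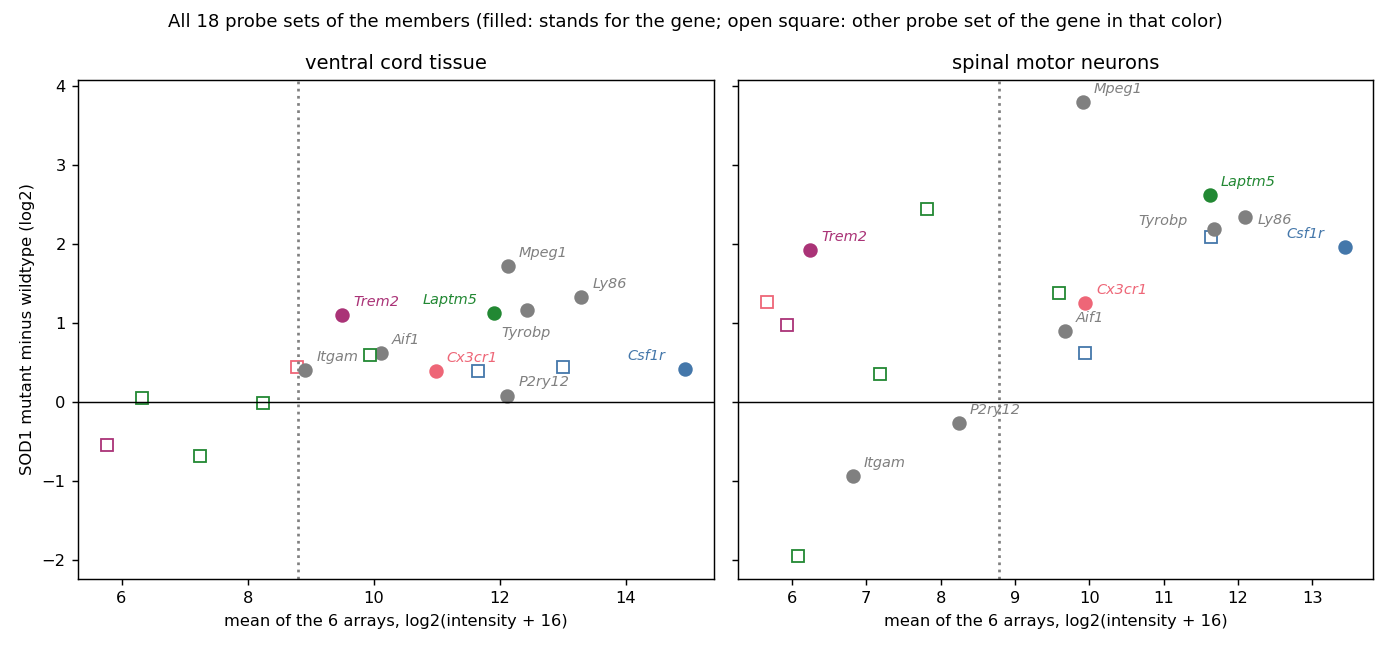
Mutant minus wildtype difference of all 18 member probe sets against their mean level over the 6 arrays, both as log2(intensity + 16), in tissue and in spinal motor neurons, with a dotted line at 8.79. Filled circles stand for the gene and open squares are further probe sets of Csf1r, Cx3cr1, Trem2 and Laptm5. In tissue the squares on or right of the dotted line lie between 0.40 and 0.60, and the 4 farther left between -0.68 and 0.05.

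Among ligands and partners of the members, only Itgb2 passed the test between genotypes. In tissue 1 of 12 tested partners rose, where 0.504% of all tested genes were called higher. Of the 12, 10 were higher in the mutant, as were 48.8% of all tested genes. The 1 called was Itgb2, the beta chain that pairs with Itgam, by 1.14 (SE 0.15, adjusted p = 0.00932, limma), from 9.71 ± 0.17 to 10.85 ± 0.12. Itgb2 in spinal motor neurons differed by 2.40 with no overlap (adjusted p = 0.274), and none of 9 tested partners passed there or of 7 in facial motor neurons. All 9 were higher in the mutant at the spinal site, and 5 of 7 at the facial site. Of all tested genes, 51.5% and 52.2% were higher there. Levels of Csf1, the ligand of Csf1r, were 11.05 ± 0.11 in wildtype and 11.42 ± 0.14 in mutant tissue, and those of Il34 were 9.61 ± 0.12 and 9.56 ± 0.09. The Cx3cr1 ligand Cx3cl1 stood at 13.33 ± 0.03 and 13.13 ± 0.03 in tissue and at 11.53 ± 0.35 in wildtype spinal motor neurons, lower by the test (adjusted p = 0.000111, limma). None of 7 tested myeloid transcription factors passed in tissue. Irf8 had the smallest p of them, with 0.72 (adjusted p = 0.212), and Spi1 was close to background at 8.53 ± 0.16 and 8.64 ± 0.17.

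Further microglia genes, taken as a list of 38 of which 35 are on the array, were examined in the same comparisons. In tissue 8 of 27 tested rose, and all 27 were higher in the mutant, with a median of 0.60, where 0.504% of all tested genes were called higher and 48.8% were higher. The 8 are the lysosomal gene Cd68 (1.30), the cathepsin Ctss (0.87), the Fc receptor chains Fcer1g (1.02) and Fcgr1 (1.02), the complement chains C1qb (0.99) and C1qc (0.75), Ptprc, the pan-leukocyte CD45 (1.07), and the microglia-enriched Fcrls (1.62), with adjusted p from 0.0056 to 0.0291 (limma). Of 23 in spinal motor neurons 1 rose, Ctss by 1.997 (SE 0.26, adjusted p = 0.0206), with 20 of 23 higher and a median of 0.96, where 0.055% of all tested genes were called higher and 51.5% were higher. Without wildtype spinal replicate 1, 3 of 20 rose with a median of 1.29, beside 0.247% of all genes, and without replicate 2, 7 of 25 rose with a median of 0.57, beside 3.18%. In facial motor neurons 0 of 18 passed (0% of all genes) and 10 were higher. Tmem119, held to be specific to microglia, stood at 10.16 ± 0.15 in wildtype and 10.31 ± 0.22 in mutant tissue.

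No tested marker of related immune cells passed in a genotype comparison. At either motor neuron site no monocyte or granulocyte marker passed the brightness filter, so none was tested there. Among markers of the macrophages of the meninges and vessels, 4 of 10 were bright enough to be tested in tissue and 1 in spinal motor neurons, and Cd163, Lyve1, Ms4a7 and Folr2 were under background on all tissue arrays. Their summed intensity ran from 3361 to 3806 in wildtype and from 3453 to 5074 in mutant tissue, and from 2564 to 4795 and 1505 to 2304 in spinal motor neurons. Monocyte and granulocyte markers summed to 13740 to 18110 in wildtype and 15200 to 22920 in mutant tissue, ranges that overlap, the granulocyte gene S100a8 standing at 12.06 ± 0.18 and 12.42 ± 0.26 and the monocyte receptor Ccr2 under background. All 5 tested monocyte and granulocyte markers were higher in mutant tissue, with a median of 0.29, where 48.8% of all tested genes were higher. None of 12 lymphocyte markers passed the brightness filter in any of the 3. The summed intensity of the 10 members ran from 48820 to 52240 in wildtype and from 82900 to 85120 in mutant tissue. At the spinal site it ran from 6944 to 23980 and from 46740 to 67060, and at the facial site from 8916 to 21020 and from 13410 to 16600, where the groups overlap.

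Among markers of other cell types, the astrocyte filament Gfap was higher in the mutant in all 3 sample kinds. It rose by 0.88 in tissue (adjusted p = 0.0198) and by 2.85 in spinal motor neurons (adjusted p = 0.00154, limma). In facial motor neurons, where the median difference of the members was 0.05, Gfap was under the brightness filter and stood at 7.26, 8.33 and 5.96 in wildtype, all under background, and at 10.54, 10.21 and 9.49 in the mutant. Between the sites it was higher at the spinal one in the mutant, by 3.87 (adjusted p = 1.22e-05), and in wildtype, by 3.91 (adjusted p = 0.0126, limma), where no member passed. With all wildtype facial arrays under background, the wildtype difference has no exact size, and Gfap passed that filter through the spinal group. Gfap was the 1 astrocyte marker of 12 tested to pass in tissue and of 11 in spinal motor neurons. Of all tested genes, 0.504% and 0.055% were called higher there. Of the astrocyte markers 9 of 12 and 8 of 11 were higher, with medians of 0.04 and 0.11, beside 48.8% and 51.5% of all tested genes. The summed intensity of all 12 astrocyte markers was apart between genotypes in tissue, at 605300 to 618900 in wildtype and 644400 to 688200 in the mutant, and in spinal motor neurons, at 180700 to 209500 and 220800 to 234600. In facial motor neurons it overlapped, at 176200 to 226800 and 213000 to 218900. No oligodendrocyte, endothelial or motor neuron marker passed in any genotype comparison. In spinal motor neurons 0 of 4 tested endothelial and 2 of 11 oligodendrocyte markers were higher in the mutant, beside 10 of 11 motor neuron markers and 51.5% of all tested genes. The summed endothelial intensity was apart there, at 4981 to 9889 in wildtype and 4275 to 4876 in the mutant. In tissue and in facial motor neurons it overlapped. The part that glia taken along with the motor neurons had in these results was not tested.

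**Figure D5:**
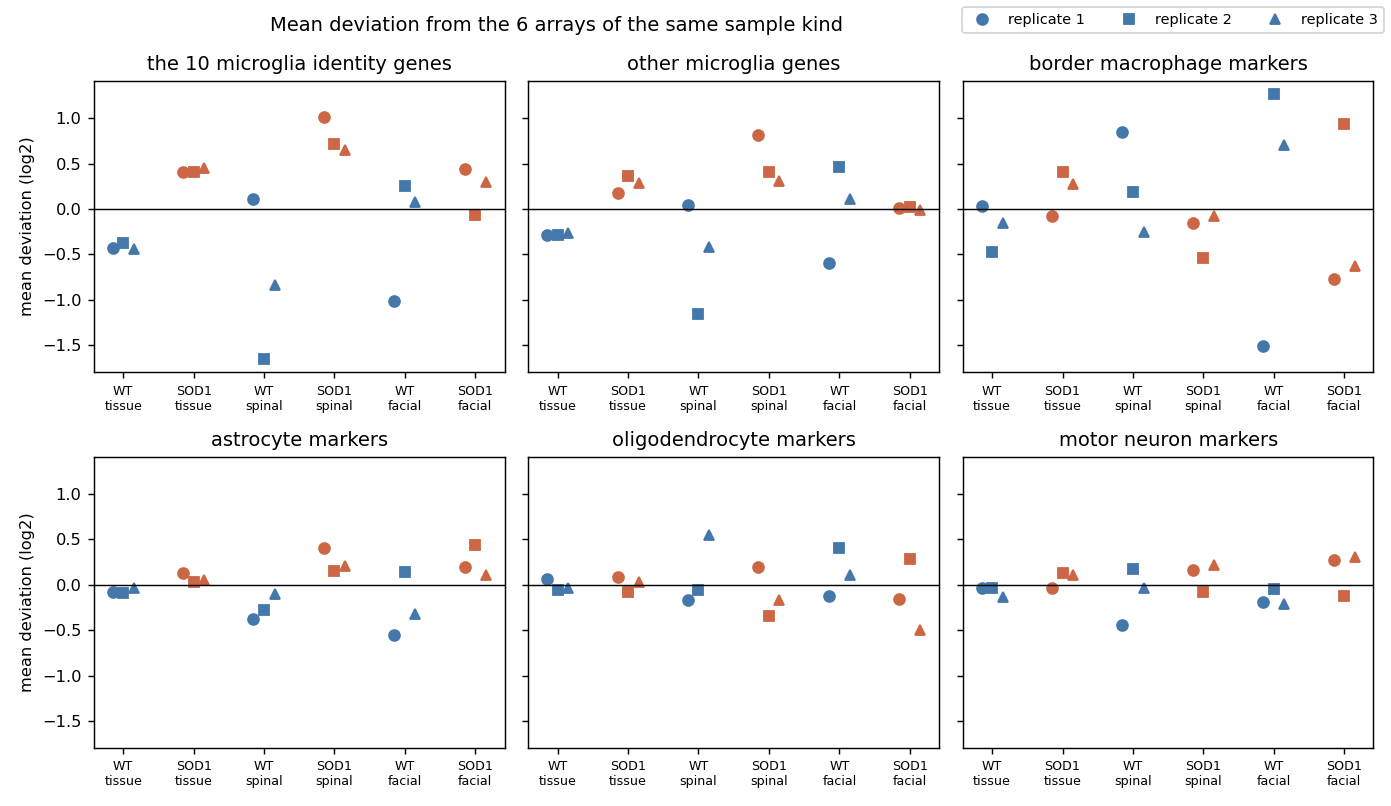
Mean deviation (log2) of the 10 members and of 5 marker lists on each array from the mean of the 6 arrays of the same sample kind, wildtype in blue and SOD1 mutant in orange. In spinal motor neurons the members lie between 0.64 and 1.02 in the mutant and between -1.65 and 0.11 in wildtype, with replicate 1 the highest wildtype array. Border macrophage, oligodendrocyte and motor neuron markers overlap between genotypes in most kinds.

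Around the means of their sample kinds, the members varied together to different degrees. Taken as deviations from the mean of the 6 arrays of the same kind, over all 18 arrays, Mpeg1 and Ly86 correlated at r = 0.89, Tyrobp and Ly86 at 0.86 and Csf1r and Laptm5 at 0.86. P2ry12 correlated at 0.08 with Laptm5, the weakest pair, and at up to 0.52 with Aif1, and Cx3cr1 at 0.17 with Tyrobp and 0.21 with Mpeg1. Itgam and Trem2, with means under the background level over the 18 arrays, were left out. Against the mean of Csf1r, Tyrobp, Laptm5 and Ly86, the 4 members tested in all 3 genotype comparisons, the 8 other genes most alike were C1qb (0.95), Cd68 (0.95), Ctss (0.91), Gap43 (0.91), Cyba (0.91), Fcer1g (0.88), Cd53 (0.86) and Mt2 (0.86). Of these, 6 were in the list of further microglia genes, and the axonal growth protein Gap43 and the metallothionein Mt2 were not. All points share their arrays, and the genotype difference is part of the deviations. The spread differed between kinds, the SD of Mpeg1 being 2.87 in wildtype spinal motor neurons and 0.12 in wildtype tissue. Each r was taken over all kinds together, so kinds of wider spread weigh more in it.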

How the data were processed

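RNA of 18 mouse samples was measured on Affymetrix arrays, 1 per sample. The authors deposited 1 table of linear intensities for 45101 probe sets, and how they were made from the scans is not given in the sources used here. The trimmed mean is 2500 on every array. Levels are log2(intensity + 16), quantile normalised over 18 arrays, a scale that understates changes of dim genes. The 34958 probe sets with 1 symbol gave 18193 genes, each represented by its probe set with the highest mean. Genes under the 40th percentile of a fit's arrays were left out, leaving 10916. Comparisons used limma 3.58.1 in R 4.3.3 (lmFit, eBayes with trend) on the arrays of their own groups, with Benjamini-Hochberg adjustment over all tested genes. SE is limma's, and n = 3 arrays a group limits the precision. No fold is given where a group mean is below 8.79. The script was tested on simulated data.

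The members and the lists were chosen with earlier results of these data known. All members are named in each comparison, from each list the genes that passed or of smallest p, and other partners by their role, after their values were seen. The alternatives were other normalisations, pseudocounts and filters, every probe set, no trend, 1 fit of all arrays, a replicate block, the actin ratio as a covariate, and each array left out.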

Additional observations from a re-analysis of the deposited data

Results flagged for a closer look

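The genotype difference of Laptm5 was larger in spinal motor neurons than in ventral cord tissue, by 1.502 on the log2 scale (SE 0.24, adjusted p = 0.0393, limma interaction contrast over 12 arrays). It stands out because the effects of the same contrast differed between 2 sample kinds by a test of the difference itself. The difference was 2.63 in spinal motor neurons and 1.12 in tissue, with the mutant higher on 3 of 3 arrays in both. The second brightest Laptm5 probe set gave 0.78 for the same contrast (adjusted p = 0.691 with every probe set tested), and the brightest one 0.12 as its adjusted p in that fit.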

How the results depend on the processing

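Of 1071 differences of single members under the alternatives, over 60 results, 959 kept their direction and side of the threshold, 62 lost the call, 31 gained it and 19 changed sign. The count of members past the threshold in tissue (6) fell to 0 with all 18 arrays in one fit, which pools the wider spread of motor neurons, and was 4 to 6 with 1 array left out. In spinal motor neurons (1) it was 2 with a pseudocount of 64, without a filter or with one at the 60th percentile, 5 with all 18 arrays, 4 with the replicate block, 0 with the actin ratio, and 1 to 5 with 1 array left out (5 without wildtype replicate 1, 4 without replicate 2). In facial motor neurons it stayed at 0. For spinal motor neurons against tissue in the genotype difference (1) it was 0 with every probe set, no trend, all 18 arrays, the replicate block or the actin ratio, and 0 to 2 with 1 array left out. For spinal against facial (0) it was 2 with all 18 arrays and 0 to 1 with 1 array left out. For wildtype spinal motor neurons against tissue (5) it was 3 with the 60th percentile or no trend, 0 with the actin ratio and 3 to 8 with 1 array left out, 8 without spinal replicate 1. For facial motor neurons against tissue (5) it was 3 with a common median or the 60th percentile, 9 with no filter, 8 with every probe set, 0 with the actin ratio and 4 to 8 with 1 array left out, 8 without facial replicate 1. For wildtype spinal against facial (0) it was 2 with all 18 arrays, and for the mutant (6) it was 3 with no trend and 5 to 6 with 1 array left out. The causes were not tested.

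Signs turned as follows. With the actin ratio, wildtype facial motor neurons against tissue gave 11.63 for Csf1r, 26.92 for Cx3cr1, 25.58 for P2ry12, 2.46 for Tyrobp and 13.62 for Laptm5. These are extrapolations, since the log2 ratio differs by 5.37 between these groups and by at most 0.32 within either. It also turned Tyrobp (0.79) and Laptm5 (-0.085) in the facial genotype comparison, P2ry12 (0.76) in the spinal against tissue difference, and Csf1r (0.055) and Tyrobp (1.01) in wildtype spinal against facial. With each array left out in turn, facial genotype values ran from -0.31 to 0.44 for Laptm5 and from -0.85 to 0.019 for Tyrobp. The spinal against tissue difference ran from -0.20 to 0.80 for Aif1 and from -0.83 to 0.24 for P2ry12, and spinal against facial from -0.046 to 2.21 for Cx3cr1. Wildtype spinal against facial ran from -0.49 to 1.06 for Ly86, from -1.19 to 0.18 for Tyrobp, from -0.27 to 1.33 for Cx3cr1 and from -0.64 to 0.11 for Laptm5. No gene given such a range had passed the test in that comparison.

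Replicate numbers are shared between groups. Same-numbered arrays correlated in their deviations at 0.07 to 0.30 in tissue, 0.02 to 0.10 in spinal and 0.03 to 0.12 in facial genotype groups. With 3 arrays a group and no tie to animals in the labels, these values cannot decide whether the numbers pair the samples. The replicate block changed the count in spinal motor neurons from 1 to 4. It changed that of the spinal against tissue difference from 1 to 0, and no other count by over 1.5 times. Levels under 8.79, which hold Trem2 and Itgam in all motor neurons, limit what can be ordered there, and 3 arrays a group leave intervals of over 2 log2 units for Mpeg1 and Ly86 in spinal motor neurons.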
